A study of Populus trichocarpa with 9 samples.

Results

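The genes described here are 303 genes of black cottonwood (Populus trichocarpa) whose transcripts were lower in protoplasts given PtrMYB092 than in protoplasts given GFP. The protoplasts, wall-less cells freed from the stem-differentiating xylem (SDX) of 6-month-old trees of the genotype Nisqually-1, had been transfected by polyethylene glycol with 1 of 3 plasmids and incubated for 12 h before RNA-seq. The PtrMYB092 group (3 libraries) received that transcription factor gene behind the constitutive 35S promoter on a plasmid that also carried 35S-driven sGFP, the PtrHSFB3-1 group (3 libraries) received PtrHSFB3-1 in the same backbone, and the GFP group (3 libraries) received the plasmid with sGFP and no transcription factor. All cells taking up a plasmid were thus exposed to strong expression outside the gene's own promoter, in a mixed population of xylem protoplasts.

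PtrMYB092 belongs to the R2R3-MYB family, plant transcription factors that bind AC-rich elements in the promoters of phenylpropanoid genes. Its relatives in Arabidopsis thaliana, among them MYB85, are known for raising the genes that make monolignols, the building blocks of lignin in the secondary walls of xylem. PtrHSFB3-1 is a heat shock factor of class B, a class that lacks the activation domain of the class A factors. The study asked which genes each factor regulates in xylem cells; genes with less transcript are the side of the PtrMYB092 comparison described here.

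Members were chosen on measured values. Each library was divided by its median ratio to the geometric mean over the 18166 genes above 0 in all 9 libraries, 1 was added, and the ratio of PtrMYB092 to GFP was formed between libraries of the same replicate number. A gene entered when the geometric mean of its 3 paired ratios was at most 0.6, each of the 3 was under 0.85 and its mean scaled GFP value was at least 10. Among 41335 genes listed, 6525 reached that GFP value, 316 of these had a mean ratio of at most 0.6, and 11 of the 316 failed on a single pair. From the remaining 305 a block of chromosome 4 was left out by rule, which removed 2 genes. The 22 monolignol genes of the study's primer table were also to be left out, and 0 of them had met the values. The 303 members were 1.10% of the 27542 genes above 0 in any library. They include 298 of the 7653 genes that passed a filter on low values (3 or more libraries at 10 or above); the other 5 lay under it.

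None of the 41335 gene IDs matched the reference annotation used here, so no member can be given a name, a product, a sequence or a coordinate. Pathways and protein families among the members were therefore not analysed. Chromosomes are read from the gene ID, and only 4 members are given by ID: the member with the lowest ratio, the one with the highest GFP value, and a pair chosen after their values were seen for their increase with PtrHSFB3-1.

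The libraries carried the transgenes they were titled for. PtrMYB092 was at 6922, 11036 and 17727 in the PtrMYB092 libraries and between 4 and 6 elsewhere, although 1 label field of PtrMYB092 replicates 2 and 3 names the other factor. Column totals were 428358 to 495579. The scale of the deposited whole numbers is not given, so the depth is unknown. Of the 20 monolignol genes tested, 18 were higher with PtrMYB092 (limma, adjusted p under 0.05). PtrCesA18, PtrCslA2 and PtrIRX10-1, genes for cellulose, mannan and xylan synthesis in secondary walls, were listed at 0 or 1 in every library. Among the monolignol genes PtrCCoAOMT3 was also at 0 or 1. PtrCAld5H1 was at 1, 5 and 12 with PtrMYB092, 0, 1 and 1 with PtrHSFB3-1 and 1, 1 and 2 with GFP. The other monolignol genes reached higher values. In a bulk library, fewer cells of a type and less RNA per cell cannot be told apart.

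Most members lay between ratios of 0.5 and 0.6. Their mean ratio of PtrMYB092 to GFP ran from 0.155 to 0.599, with a median of 0.517 and quartiles of 0.459 and 0.572. A ratio of at most 0.5 was found in 129 members and of at most 0.33 in 13. The last 3 members inside the limit had ratios of 0.599, and the first 3 genes outside had 0.601, 0.601 and 0.601. By replicate number the members' median paired ratio was 0.511, 0.597 and 0.446 for numbers 1, 2 and 3, and that of all genes tested was 0.922, 0.967 and 0.921. On this scaling all genes tested therefore sat 0.11 below 0 on the log2 scale, which is part of every ratio given for the members. These values fixed the membership and carry no test.

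Potri.003G080700, on chromosome 3, had the lowest ratio, 0.155. Its deposited values were 11, 5 and 10 in the PtrMYB092 libraries, 51, 29 and 37 in the PtrHSFB3-1 libraries and 107, 32 and 70 in the GFP libraries. Every PtrMYB092 library lay below every GFP library, and the PtrHSFB3-1 libraries overlapped those of GFP. Its neighbour by gene number was also a member, with 100, 104 and 145 with PtrMYB092 against 260, 255 and 431 with GFP.

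Potri.005G221000, on chromosome 5, was the member with the highest GFP value. It had 272, 408 and 498 in the PtrMYB092 libraries, 2675, 1928 and 3021 in the PtrHSFB3-1 libraries and 1048, 1023 and 1627 in the GFP libraries. The 3 groups did not overlap, and the factors lay on opposite sides of GFP, with mean ratios of 0.337 for PtrMYB092 and 2.31 for PtrHSFB3-1. Its log2 fold change for PtrHSFB3-1 against GFP was 1.28 (standard error 0.32), which passed at an adjusted p = 0.0345 (limma). That call ended without GFP replicate 1 or 2, PtrHSFB3-1 replicate 1 or 3, or PtrMYB092 replicate 2 (adjusted p of 0.0648 to 0.146), and under column totals alone (adjusted p = 0.0517), no filter on low values (0.0966), only the 6 libraries of the comparison (0.0562), PtrMYB092 replicates 2 and 3 left out (0.0553) or replicate 1 of all groups left out (0.077). With the replicate number as a block limma's adjusted p was 0.00164.

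Among the strongest ratios the patterns with PtrHSFB3-1 differed. The member at rank 2, on chromosome 2, had 19, 5 and 4 with PtrMYB092, 50, 5 and 4 with PtrHSFB3-1 and 161, 13 and 23 with GFP. In it replicate 1 stood far above the other libraries of each construct. The member at rank 3, on chromosome 3, had 3, 4 and 4 with PtrMYB092, 4, 3 and 2 with PtrHSFB3-1 and 20, 13 and 25 with GFP, low with both factors. The member at rank 8, also on chromosome 3, had 22, 27 and 44 with PtrMYB092, 170, 274 and 418 with PtrHSFB3-1 and 73, 96 and 213 with GFP. In each replicate number the factors lay on opposite sides of GFP, but the PtrHSFB3-1 and GFP libraries overlapped. Its log2 fold change for PtrHSFB3-1 of 1.45 (standard error 0.45) did not pass (adjusted p = 0.0683 from limma). With the replicate number as a block limma's adjusted p was 8.85e-05.

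**Figure D1:**
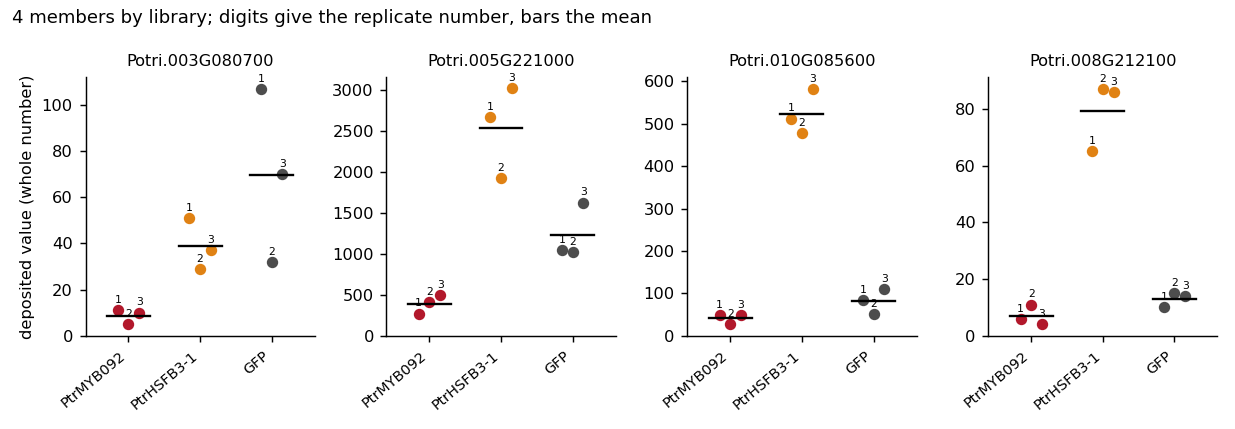
Deposited values (linear vertical axis from 0) of 4 members in the PtrMYB092, PtrHSFB3-1 and GFP libraries, with replicate numbers beside the points and bars at the mean of 3 libraries. The mean of PtrMYB092 was lowest in each panel, and PtrHSFB3-1 was above all GFP libraries in every panel except that of Potri.003G080700.

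The share of members increased with the GFP level. Of genes with a mean scaled GFP value of 10 to 20, 69 of 2735 were members (2.52%). The share was 4.08% at 20 to 50 (89 members), 8.48% at 50 to 200 (109 members) and 11.1% at 200 or more (36 members of 323 genes). The median ratio differed little between these classes, at 0.539, 0.519, 0.511 and 0.503 in the same order. The 1 added to each value pulls the ratios of low genes towards 1, and its part in these shares was not tested.

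In 147 of the 303 members (48.5%, beside 11% of all genes tested) all 3 PtrMYB092 libraries lay below all 3 GFP libraries. In the other 156 the groups overlapped even though every paired ratio was low. The limma fit without the replicate number called 26 of the 298 members tested lower, where 0.366% of all genes tested were called, and the fit with the number as a block called 263, where 7.77% were called. The rule used the same libraries, so nothing is read from these counts.

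The rule was also applied to only 2 replicate numbers, and the ratio was then read in the number left out, a check added after the data had been seen. The scaling still used all 9 libraries, and the genes chosen in this way were not the same sets as the 303 members. The members themselves were chosen on the PtrMYB092 and GFP libraries of every number. The shares below therefore describe those sets only and are no test of the members or of their fall. The shares set beside are of all genes with a mean scaled GFP value of at least 10 in the 2 numbers used. Those genes were not matched to the chosen ones by level. Without number 1 the rule chose 315 genes, of which 286 (90.8%) had a PtrMYB092 to GFP ratio under 0.85 in number 1, beside 41.3%. Without number 2 it chose 449, of which 407 (90.6%) were under 0.85 in number 2, beside 25.8%. Without number 3 it chose 256, of which 241 (94.1%) were under 0.85 in number 3, beside 44.9%. The median ratio in the number left out was 0.623, 0.664 and 0.486. In the numbers used for the choice it was 0.603 and 0.438 without number 1, 0.547 and 0.478 without number 2, and 0.453 and 0.578 without number 3, so the median in number 1 or 2 was above those of both numbers used, and that in number 3 was not. There 43.8%, 34.7% and 73.4% of the chosen genes were at or below 0.6, and 14, 13 and 6 of them lay above 1.

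**Figure D2:**
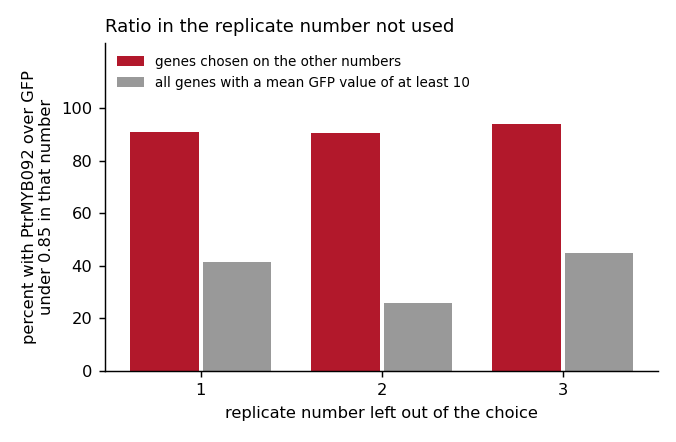
Percent of genes with a PtrMYB092 to GFP ratio under 0.85 in the replicate number that was not used to choose them (red), beside all genes with a mean GFP value of at least 10 (grey), for each of the 3 numbers. The chosen genes were at 90.6% to 94.1% and all genes at 25.8% to 44.9%. The chosen genes are not the same sets as the members, and the scaling used the libraries of every number. The genes in grey were not matched to them by level. The shares describe the chosen sets and are no test of the members.

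The members had no common behaviour with PtrHSFB3-1. The mean paired ratio of PtrHSFB3-1 to GFP ran from 0.219 to 7.37, with a median of 0.781 and quartiles of 0.558 and 1.34. It was at most 0.6 in 93 members (30.7%), between 0.6 and 1 in 93, from 1 to 2 in 74 and at least 2 in 43 (14.2%). Of the 6525 genes with a mean GFP value of at least 10, 8.55% were at or below 0.6, 5.79% at or above 2, and the median was 0.916. Members thus lay further from 1 on both sides than those 6525 genes, which were not matched to them by level. The GFP libraries are shared with the choice of members, which favours genes that are high in them and so low ratios to them; the low side is therefore not independent of the rule.

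All 3 paired PtrHSFB3-1 ratios were under 0.85 in 100 members (33% of members, 22.2% of the 6525 genes) and over its inverse of 1.18 in 69 (22.8%, against 15.8%). The members' median paired ratio of PtrHSFB3-1 to GFP was 1.05, 0.859 and 0.609 in numbers 1, 2 and 3, while that of all genes tested was 1.01, 0.970 and 0.929. The low median with PtrHSFB3-1 was therefore mainly that of number 3, and in number 1 the members' median lay above 1.

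**Figure D3:**
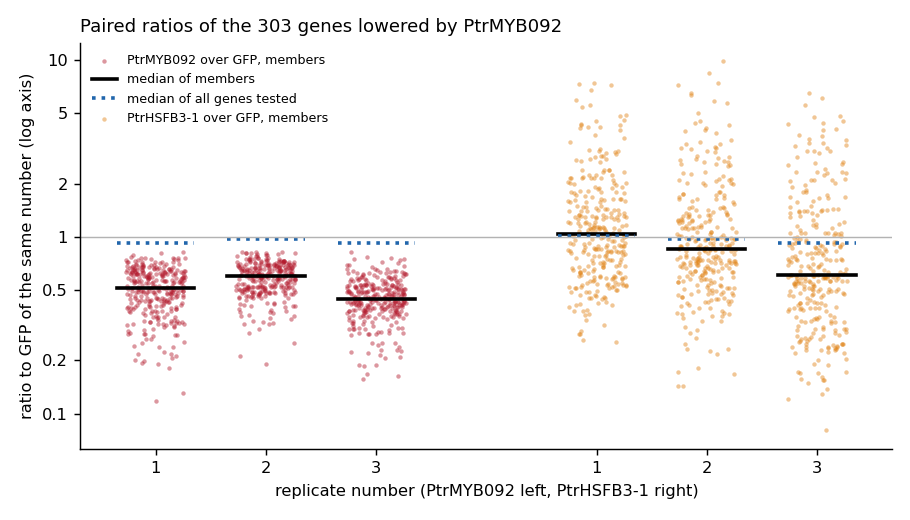
Ratio to the GFP library of the same replicate number (log axis) for the 303 members, with PtrMYB092 in red at left and PtrHSFB3-1 in orange at right; black bars are medians of members and dotted blue bars medians of all genes tested. The PtrMYB092 ratios are under 0.85 by choice, and the PtrHSFB3-1 ratios spread on both sides of 1 with medians of 1.05, 0.859 and 0.609.

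**Figure D4:**
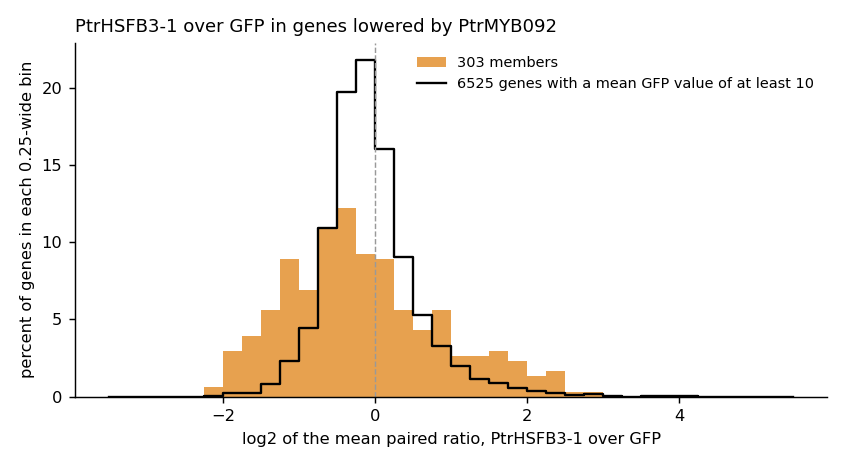
Percent of genes by log2 of the mean PtrHSFB3-1 to GFP ratio, for the 303 members (filled) and the 6525 genes with a mean GFP value of at least 10 (line); 1 gene beyond the axis is counted in its outermost bin. The members form a broader distribution, with 30.7% at or below a ratio of 0.6 and 14.2% at or above 2.

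In the test across all genes, PtrHSFB3-1 lowered 33 of the 298 members tested, where 3.01% of all genes tested were called lower, and raised 16, where 7.07% were called higher (limma on log2(value + 1), Benjamini-Hochberg adjusted p under 0.05, fold change under 0.8 or over 2). The lower share of 11.1% was above the background and the higher share of 5.37% was below it, and the other 249 members did not pass. The GFP libraries of this test were also used to choose the members. That favours lower calls and works against higher ones, here and in the counts that follow, so these shares are not independent of the rule. The members' median log2 fold change was -0.28, beside 0.01 over all genes tested. All 33 had their PtrHSFB3-1 libraries below, and all 16 above, every GFP library. Over the whole membership groups apart in this way were found in 66 members on the lower side (21.8% of members, near the 18.9% of all genes tested) and in 37 on the higher side (12.2% of members, below the 16.3% of all genes tested). With the replicate number as a block 104 members were lower (34.9%) and 45 higher (15.1%), where 16.9% and 10.2% of all genes tested were called; every member called without the block was among them. The higher share thus lay below the background without the block and above it with the block. Scaling by column totals alone moved the median of all genes to -0.26 and gave 66 members lower (22.1%) and 14 higher (4.70%), where 10.7% and 5.29% of all genes tested were called. The 33 became 6 without GFP replicate 3, 6 without PtrHSFB3-1 replicate 3, 10 without GFP replicate 2 and 14 without PtrHSFB3-1 replicate 2, and the 16 became 7 without PtrHSFB3-1 replicate 3.

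The largest increase with PtrHSFB3-1 was that of Potri.010G085600, on chromosome 10. It had 48, 27 and 48 in the PtrMYB092 libraries, 512, 478 and 582 in the PtrHSFB3-1 libraries and 85, 51 and 110 in the GFP libraries. PtrHSFB3-1 stood far above both other groups, and PtrMYB092 was below GFP in each number, although the scaled values of the groups overlapped. Its log2 fold change for PtrHSFB3-1 against GFP was 2.95 (standard error 0.33), with an adjusted p = 0.00118 (limma).

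The next was Potri.008G212100, a low gene on chromosome 8. Its values were 6, 11 and 4 with PtrMYB092, 65, 87 and 86 with PtrHSFB3-1 and 10, 15 and 14 with GFP. Its log2 fold change with PtrHSFB3-1 was 2.74 (standard error 0.29), with an adjusted p = 0.00087 (limma). Both calls held under every alternative tried. Over the 16 raised members the log2 fold change ran from 1.09 to 2.95, and their PtrMYB092 to GFP ratio from 0.337 to 0.590.

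The 33 members lowered by PtrHSFB3-1 fell by 0.78 to 2.13 on the log2 scale. The largest fall was that of the chromosome 3 member with 3, 4 and 4 with PtrMYB092 and 20, 13 and 25 with GFP (log2 fold change -2.13, standard error 0.30, adjusted p = 0.00331 from limma). A chromosome 1 member that did not pass without the block had 29, 3 and 1 with PtrHSFB3-1 and 31, 24 and 25 with GFP. Its log2 fold change of -1.94 had a standard error of 0.97 (adjusted p = 0.222 from limma, and 0.0209 with the replicate block, which called it lower), and its PtrHSFB3-1 replicate 1 lay within the GFP values.

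Members varied more between replicates than other genes. The median standard deviation of log2 values within a construct was 0.53 for members and 0.28 for all genes tested in PtrMYB092, 0.63 and 0.26 in PtrHSFB3-1, and 0.55 and 0.29 in GFP. A replicate lay over 2-fold from the mean of the other libraries of its construct most often when it was replicate 1. For numbers 1, 2 and 3 this was so in 110, 53 and 65 members with PtrMYB092 (36.3%, 17.5% and 21.5%, beside 11.4%, 4.29% and 7.07% of all genes tested). With PtrHSFB3-1 it was so in 145, 59 and 75 (47.9%, 19.5% and 24.8%, beside 13.0%, 5.78% and 3.91%). With GFP it was so in 113, 73 and 38 (37.3%, 24.1% and 12.5%, beside 11.3%, 6.00% and 4.56%). Over all genes tested it was likewise most often replicate 1. Replicate 1 was over 2-fold above the mean of replicates 2 and 3 in 79 members with PtrMYB092 (26.1%, beside 6.43% of all genes tested), in 134 with PtrHSFB3-1 (44.2%, beside 10.1%) and in 86 with GFP (28.4%, beside 7.0%). In 59 members (19.5%, beside 4.19%) this held in all 3 constructs at once. In 11 of the 303 members replicate 1 was over 2-fold below in all 3, a larger share than the 1.62% of all genes tested. Libraries of the same number deviated together across genes. The sources used here do not state what such libraries had in common, and its part in these values was not tested.

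The behaviour of replicate 1 went along with that of PtrHSFB3-1. Among the 79 members with a high replicate 1 in PtrMYB092, the PtrHSFB3-1 to GFP ratio had a median of 1.36 and was above 1 in 58. Among the 31 with replicate 1 over 2-fold below, the median was 0.492 and 6 were above 1. Among the 193 within 2-fold, the median was 0.725 and 53 were above 1. These medians and counts were not made for all genes of each class, so they are not read as particular to the members. With the replicate block limma called 5 of the 79 lower and 25 higher with PtrHSFB3-1, beside 5.49% and 37.2% of the 492 genes tested of that class. The members' higher share was thus below that of their class. It called 20 of the 31 lower and 2 higher, beside 31.6% and 7.43% of the 377 genes of that class. Of the 188 members tested of the last class, it called 79 lower and 18 higher, beside 17% and 8.43% of the 6784 genes of that class. Without the block 32 of the 33 lower and 14 of the 16 higher calls were of this last class. Over all genes tested, 3.36% of that class were then called lower and 6.97% higher. In the class with a high replicate 1 these shares were 0% and 12.2%, and in the class with a low one 0.531% and 2.12%. Lower calls without the block were thus rare outside the last class over all genes tested too. A larger share of higher than of lower calls in the class with a high replicate 1 was thus also found over all genes tested. Without replicate 1 of all 3 groups, an alternative added after seeing the data, 58 of the 266 members still tested were lower (21.8%) and 36 higher (13.5%), where 5.46% and 6.29% of all genes tested were called.

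By gene ID, 288 members lay on the numbered chromosomes and 15 on unplaced scaffolds. Chromosome 1 held the most, 39. As a share of genes tested, chromosome 11 was highest at 6.91% (19 members), followed by chromosome 3 at 5.67% and chromosome 14 at 5.35%. Chromosome 12 was lowest at 2.11% (6 members), and 3.89% of all genes tested were members.

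Members often stood next to each other. Of the 288, 90 (31.3%) had another member within 1000 of their ID number, a span of about 10 neighbouring gene numbers, and 13.3% of the other 7149 genes tested had a member so near. For the next gene number the shares were 14.6% (42 members) and 1.52%. The 90 formed 36 runs, of which 30 were pairs, 2 had 3 members, 2 had 4, 1 had 6 and 1 had 10. The deviations of a gene's libraries from their construct means had a median correlation of 0.70 over the 9 libraries in the 108 pairs within runs, beside 0.25 in all 41328 pairs, as a description only, since all pairs share the same libraries. Larger runs give more of the 108 pairs, and the runs of 10 and 6 give the most, so the median of 0.70 is weighted towards them. Neighbouring genes can be near-identical copies, and how reads shared by copies were counted is not given in the sources used here, so the separate values of neighbours are uncertain.

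The run of 10 on chromosome 1 held members of opposite response to PtrHSFB3-1. In 4 of them PtrHSFB3-1 was above GFP, with ratios of 2.78 to 4.48, and in 6 below, with ratios of 0.251 to 0.375, while the PtrMYB092 ratio lay between 0.395 and 0.482 in all 10. A member of the first kind had 175, 31 and 18 with PtrMYB092, 1085, 328 and 207 with PtrHSFB3-1 and 302, 69 and 53 with GFP. Its replicate 1 was the highest in every construct, and it did not pass without the block (log2 fold change 2.23, standard error 1.00, adjusted p = 0.175 from limma) but did with it (standard error 0.17, adjusted p = 2.01e-05). A member of the other kind had 38, 50 and 35 with PtrMYB092, 37, 21 and 12 with PtrHSFB3-1 and 56, 165 and 99 with GFP. It fell by 1.92 with PtrHSFB3-1 (standard error 0.47, adjusted p = 0.0312 from limma), and all 6 of its kind passed the test.

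The run of 6 on chromosome 3 held 4 adjacent members that were low with both factors. The one with the highest GFP value had 201, 293 and 391 with PtrMYB092, 295, 286 and 276 with PtrHSFB3-1 and 765, 556 and 812 with GFP. The 4 had PtrHSFB3-1 ratios of 0.327 to 0.455, and PtrMYB092 ratios of 0.432 to 0.561. Not all of the 4 passed the test with PtrHSFB3-1. In order of gene number limma's adjusted p was 0.06, 0.0352, 0.0697 and 0.0271 without the block, and all 4 were called lower with it. Of the other members of this run, 1 was at 0.996 and 1 at 1.56 with PtrHSFB3-1.

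The run of 4 on chromosome 11 with the higher values had its replicate 1 above the other libraries in every construct. One of its members had 757, 184 and 153 with PtrMYB092, 2720, 762 and 689 with PtrHSFB3-1 and 1380, 359 and 381 with GFP. The PtrHSFB3-1 ratios of the 4 were 1.06 to 2.19 and the PtrMYB092 ratios 0.462 to 0.515. An adjacent pair on chromosome 8 was more extreme, with 69, 3 and 6 in PtrMYB092, 320, 14 and 30 in PtrHSFB3-1 and 279, 10 and 35 in GFP for the first of the pair. Over all 36 runs, 26 had every member on the same side of 1 with PtrHSFB3-1 and 10 had members on both sides.

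**Figure D5:**
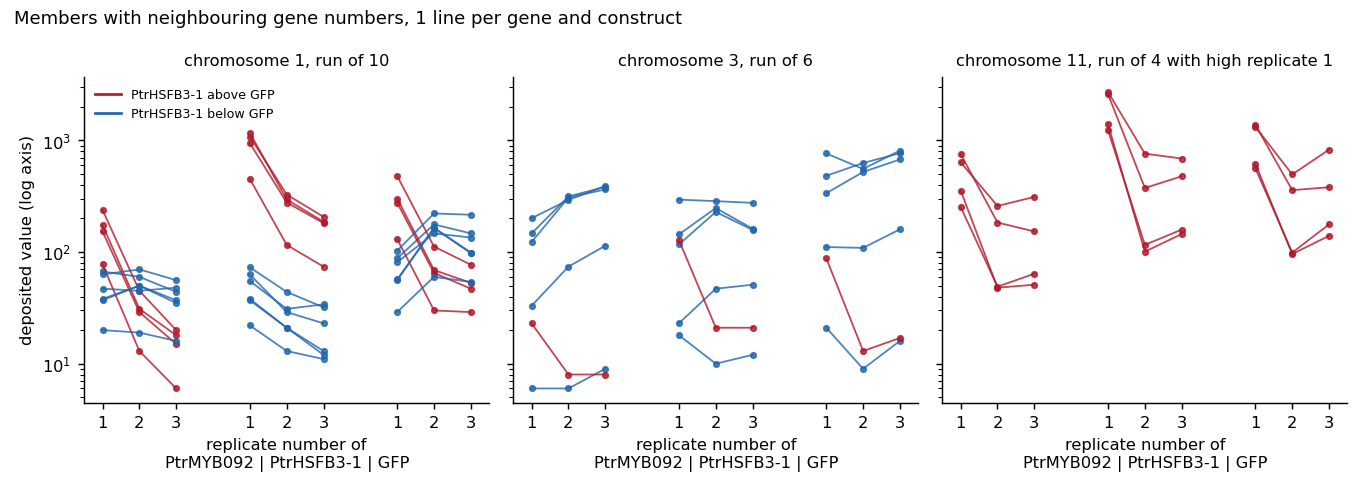
Deposited values (log axis) in the libraries of PtrMYB092, PtrHSFB3-1 and GFP for the members of 3 runs, with 1 line per gene and construct joining replicate numbers; red genes had PtrHSFB3-1 above GFP and blue genes below. The chromosome 1 run holds 4 red and 6 blue genes, and in the red genes replicate 1 is the highest in every construct.

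The study had also listed genes that changed in SDX when stems were bent for 3 days to induce tension wood, a reaction xylem with less lignin, in other samples. The study's longer list, from 7 days of bending, was not used here. Of its 48 genes repressed at 3 days, 7 could be tested here and 3 were members, which is 1.01% of the members tested beside 0.0915% of all genes tested. Of the 343 induced, 72 could be tested and 2 were members (0.671% beside 0.941%). The numbers are small and carry no test. With PtrHSFB3-1 the first and second of the 3 repressed ones were below GFP (mean ratios of 0.573 and 0.357), and the third was above it (2.64). The first, on chromosome 13, had 298, 569 and 489 with PtrMYB092, 378, 468 and 444 with PtrHSFB3-1 and 554, 871 and 1208 with GFP. The second, on chromosome 8, had 20, 17 and 17 with PtrMYB092, 22, 12 and 11 with PtrHSFB3-1 and 61, 37 and 45 with GFP, with both factors below every GFP library. The third, on chromosome 6, had 15, 4 and 3 with PtrMYB092, 47, 25 and 21 with PtrHSFB3-1 and 24, 8 and 8 with GFP.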

How the data were processed

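The data are 1 deposited table of gene values for 9 RNA-seq libraries of transfected SDX protoplasts. The authors aligned reads with Bowtie 2 (TopHat in the submitters' processing notes). How reads were then counted, on which strand, and what became of reads shared between copies is not given in the sources used here. Although titled raw counts, the deposited values are taken here as a score of unknown scale, in whole numbers: among genes whose values sum to 2 over a pair of libraries, 81.9% to 97.5% were at 1 and 1 over the 36 pairs, where random draws give at most 50%. No counting interval or floor is therefore given.

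For the test, values were scaled by TMM (unweighted, trimmed by 30% of ratios and 5% of levels), put on the log2(value + 1) scale, on which the change of low genes is understated, and fitted with limma 3.58.1 in R 4.3.3 over all 9 libraries and 7653 genes (at least 10 in at least 3 libraries, sum of at least 15), with p-values adjusted over all of them. The members' ratios use the median-of-ratios scaling of the rule. The members and lists were chosen with earlier results of these data known. The rule for named genes was the lowest ratio and the highest GFP value, since 0 IDs matched an annotation; lists by keyword, promoter motifs and sequences were not made. Genes repressed or induced in tension wood were taken by ID only, and the study's own fold changes were not used.

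Same-numbered libraries deviated together (correlations across genes of 0.516 to 0.863 in 9 pairs, and -0.706 to 0.267 in 18 others), so the numbers pair the libraries, and the fit with the number as a block is given beside counts of calls. The paper calls them biological replicates, and the labels do not tell whether separate trees were used, so the p-values cover only the spread among these libraries, which may be technical. Alternatives covered scaling, the value added, the filter, thresholds, the block, fewer libraries and each library left out.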

Additional observations from a re-analysis of the deposited data

How the results depend on the processing

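The 303 genes became 189 with 5 added before the logarithm, 129 with a ratio of at most 0.5 and 97 with all 9 ratios under 0.85 whatever the number. TMM scaling gave 238, column totals 350 and a GFP value of at least 20 gave 234. Leaving out a replicate number gave 250 to 424, with the GFP minimum still taken over all 3 GFP libraries. The sets chosen further above without a number took that minimum over the 2 numbers used, so their sizes differ. The 33 lower and 16 higher members with PtrHSFB3-1 became 104 and 45 with the replicate block, 5 and 9 at an adjusted p under 0.01, and 58 and 36 without replicate 1 of all 3 groups, and the lower ones 66 with column totals. Without 1 library they ranged from 6 to 38 lower and from 7 to 22 higher. The median log2 fold change of the members with PtrHSFB3-1 stayed below 0. It ran from -0.56 (column totals, or without PtrHSFB3-1 replicate 1) to -0.06 (without PtrHSFB3-1 replicate 3). Column totals also moved the median of all genes to -0.26. The choice of members favours genes high in the GFP libraries and so values below 0, so nothing is read from the constant sign. Over all genes, the 380 calls for PtrMYB092 and 771 for PtrHSFB3-1 became 1058 and 2080 with the replicate block, 840 and 1277 with no filter, and 246 and 345 at an adjusted p under 0.01; a filter of 20 gave 253 for PtrMYB092, column totals 1227 for PtrHSFB3-1, and PtrMYB092 with replicate 1 alone gave 1. Without 1 library they ranged from 147 to 417 for PtrMYB092 and from 191 to 789 for PtrHSFB3-1. The block called Potri.003G080700 lower with PtrHSFB3-1 (adjusted p = 0.0472 from limma, 0.545 without it). The cause of these shifts was not tested. The depth behind the values is unknown.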
